A study of Mus musculus with 96 samples.

Results

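The 32 knock-in libraries of 10-month-old mice, out of 96 libraries in the series, were used to ask how striatal gene expression follows the length of the CAG repeat in Htt, the gene mutated in Huntington's disease. They were all the 10-month libraries labelled as heterozygous knock-ins, with repeat length labels of 20, 50, 92 and 140 (Q20, Q50, Q92 and Q140 below). Each length had 8 C57BL/6 mice, 4 females (F1 to F4) and 4 males (M1 to M4), and each mouse carried 1 knock-in allele beside its normal one. As references, the 10-month set also held 16 wild types, 8 caged with Q20 mice and 8 caged with Q50 mice, and 32 knock-in libraries of the same lengths came from mice of 6 months. By the housing label, Q92 mice shared cages with no other genotype, and neither did Q140 mice. Each length was therefore its own cohort, and an effect of length cannot be told apart from a difference between cohorts. Every p-value below measures the spread between the libraries that the labels give as separate animals.

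The striatum receives input from the cortex and the thalamus, and most of its neurons are GABAergic projection neurons. Those of the indirect pathway carry dopamine D2 receptors and enkephalin, and those of the direct pathway carry dopamine D1 receptors and substance P. Loss of transcripts of these neurons is the best known feature of striatal expression in Huntington's disease models, and longer repeats give earlier disease in patients.

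Library totals of the 32 ran from 29.09 to 36.38 M counts (M for mega), with a median of 32.53 M, and mitochondrial transcripts took 9.61 to 13.57% of them. Levels below are CPM, counts scaled to an equal library total and corrected for composition between libraries. At the median depth, 3 counts correspond to 0.0922 CPM. Marker levels are means of log2 CPM over a list of genes. By these levels 5 libraries stood apart after the data were seen. Q20 F4 (6.77), Q20 M4 (7.3) and Q92 F1 (6.76) had thalamus levels above 6.5, and they also had the lowest projection neuron levels, 6.76, 7.17 and 7.45 against 7.99 to 8.92 in the libraries that did not stand apart. Q20 F4 also had a midbrain dopamine neuron level of 3.91, against 0.56 to 1.77. Q50 M4 had a liver level of 7.45, against -0.62 to 1.52, and Q20 F2 a pituitary level of 4.8, against -3.38 to 3.31. Slopes were therefore also fitted on the other 27 libraries. These were 5 Q20, 7 Q50, 7 Q92 and 8 Q140 libraries, so the choice took out mainly Q20 libraries and none of Q140.

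Transcripts typical of the thalamus, which borders the striatum, were lower at longer repeats. The thalamus level was the mean over Slc17a6, a vesicular glutamate transporter, the transcription factors Tcf7l2, Shox2 and Lef1, the kinase gene Prkcd and Ntng1, an axon guidance ligand. Its mean was 5.78 ± 0.99 in Q20, 4.75 ± 0.9 in Q50, 4.72 ± 1.64 in Q92 and 3.33 ± 1.01 in Q140 mice (SD, n = 8 each), beside 4.4 ± 1.37 in wild types (SD, n = 16). Single libraries ran from 4.51 to 7.3 in Q20, from 3.42 to 5.94 in Q50, from 2.13 to 6.76 in Q92 and from 2.19 to 5.45 in Q140, so the 4 lengths overlapped. The slope was -2.2 log2 units over the span of 120 from 20 to 140 (permutation test within sex, 100000 resamples, two-sided, p = 0.00049), and without Q140 it was -1.66 (p = 0.126). Slc17a6 alone had 34.4 to 258 CPM in Q20 libraries (median 88.9), 13.3 to 96.5 in Q50 (52.6), 4.57 to 174 in Q92 (50) and 2.39 to 73.7 in Q140 (10.6). The other thalamus markers moved with the level: 10 of 10 fell with length without the level in the fit and 0 of 10 with it. Of all genes tested, 11.9% fell without the level and 5.78% with it. Prkcd and Shox2 were no longer past the threshold without the 5 libraries set apart (adjusted p = 0.0615 and 0.0962), and Shox2 also lost its call without Q20 F4 or without Q20 M4 (slopes -1.87 and -1.6). Level and length shared 34.9% of their variance. Each slope is therefore given without and with the level as a covariate; the part of the level in a result was not tested beyond this.

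**Figure D1:**
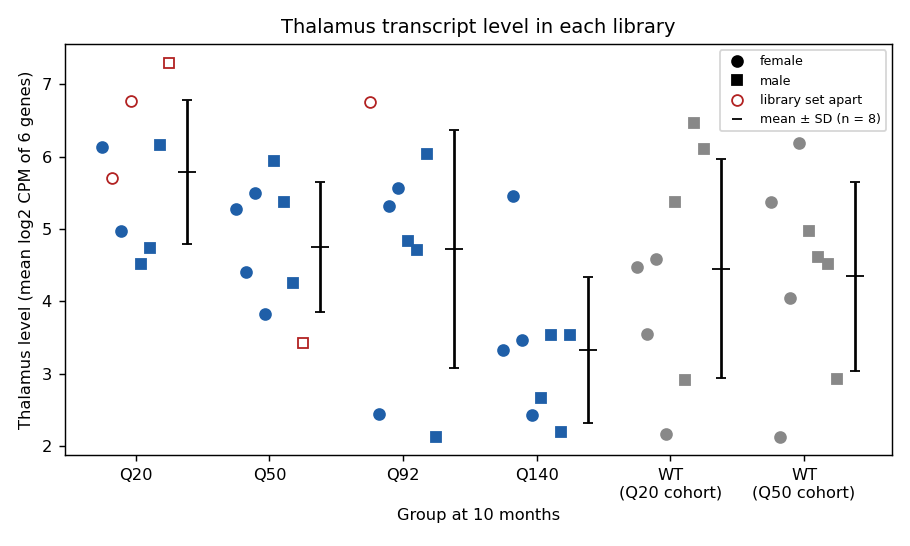
Thalamus level (mean log2 CPM of 6 genes) of each 10-month library by CAG length label, with the mean and SD of each group beside its points and both wild-type cohorts at the right; red open points are the 5 libraries set apart. The level is highest in Q20 libraries (5.78 ± 0.99) and lowest in Q140 libraries (3.33 ± 1.01), and single libraries of different lengths overlap.

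Htt itself was lower in Q140 striatum. It had 193 to 222 CPM in Q20 libraries (median 212), 202 to 229 in Q50 (215), 179 to 217 in Q92 (197) and 130 to 187 in Q140 (168), against 190 to 225 (203) in wild types. All 8 Q140 libraries lay below every Q20 and every wild-type library, and 6 of 8 lay below every other knock-in library. A slope here is the log2 change fitted from 20 to 140, tested with edgeR's quasi-likelihood test with Benjamini-Hochberg adjustment over all genes, at a threshold of 0.05. The slope of Htt was -0.37 ± 0.0583 (SE, adjusted p = 3.22e-05) without the thalamus level and -0.43 ± 0.0693 (adjusted p = 9.43e-05) with it. The counts do not separate the knock-in allele from the normal one. Of 16 measured genes that lie beside Htt, 2 rose and 0 fell without the level, and 2 rose and 2 fell with it, while 11.9% of all genes tested rose without the level, so the count without it was near that background. Those past the threshold without it were Mfsd10 (slope 0.27) and Lrpap1 (0.15).

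Many genes followed repeat length, and fewer did once the thalamus level was in the fit. Of 17044 genes tested, 4050 were past the threshold (23.8%), 2022 higher (11.9%) and 2028 lower (11.9%) at longer repeats. With the thalamus level in the fit 2081 were past it (12.2%), 1096 higher (6.43%) and 985 lower (5.78%). Both fits called 1313 genes, 774 higher and 539 lower, all with the same sign, which is 32.4% of the calls without the level and 63.1% of those with it. With the level, the sign of 200 of the 4050 slopes turned. The smaller count with the level depended on its log2 scale. With the level on a linear scale 3723 genes were past the threshold, 2048 of them among the 2081. On the other 27 libraries, 3926 of 17237 genes were called (22.8%), 1997 higher (11.6%) and 1929 lower (11.2%), and 3025 of these were among the 4050. With the level, those libraries gave 2578 calls (15%), 1280 higher (7.43%) and 1298 lower (7.53%). The balance of directions depended on the values used: limma on log2(FPKM + 1) gave 2615 higher and 1359 lower without the level, and 1734 higher and 694 lower with it.

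**Figure D2:**
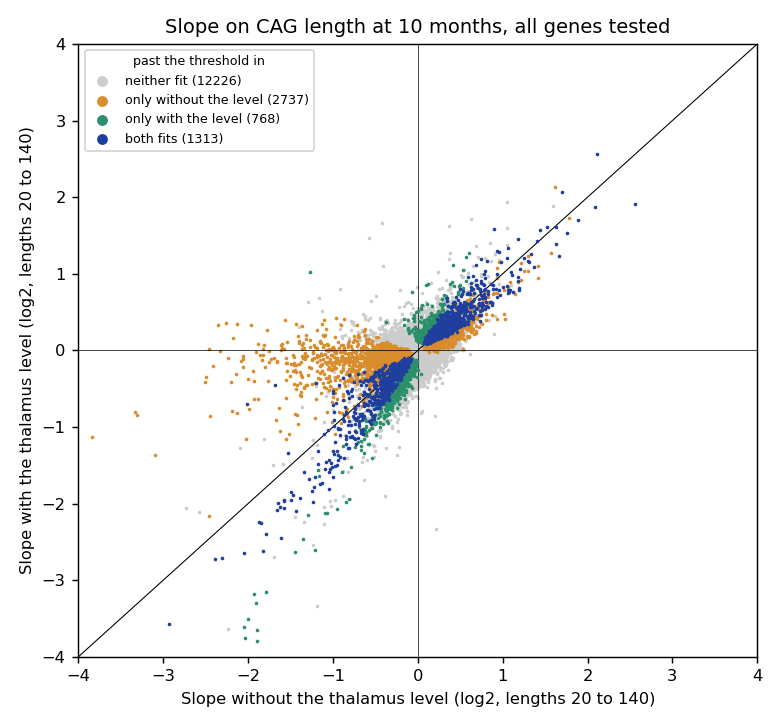
Slope of each gene (log2 change from 20 to 140) once the thalamus level is included (vertical) and without it (horizontal), with axes from -4 to 4 that leave out 13 genes. Colours mark the 1313 genes past the threshold in both fits, the 2737 only without the level, the 768 only with it and the 12226 in neither, and the thalamus genes sit at strongly negative slopes without the level and near 0 with it. For the 6 genes that make up the level, a slope near 0 with it follows from the fit itself.

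Transcripts of striatal projection neurons were lower at longer repeats, and more of them passed the test once the level was in the fit or the 5 libraries were left out. Of 30 genes shared by both projection neuron types, 6 fell and 0 rose without the level, 15 fell with it, 19 fell on the 27 libraries and 28 fell there with the level. Of all genes tested, 11.9%, 5.78%, 11.2% and 7.53% fell in these 4 fits in order. The median slope of the 30 genes was -0.18 without the level and -0.56 with it, against 0.01 over all genes in both fits. The libraries left out include those with the lowest levels of these genes. Leaving them out moved the mean level from 8.25 to 8.68 in Q20, while that of Q140 stayed at 8.23. The larger counts on the 27 libraries therefore depend on that choice and are no separate support for a fall. In bulk tissue, fewer cells of a type and less RNA per cell cannot be told apart.

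Rgs4, a regulator that shortens G protein signals, had 408 to 798 CPM in Q20 libraries, 549 to 733 in Q50, 417 to 631 in Q92 and 416 to 520 in Q140, against 589 to 895 in wild types. Its median was 622 CPM in Q50, 571 in Q92 and 428 in Q140 mice. All 8 Q140 libraries lay below every wild type, and the lowest values of Q20 (408) and Q92 (417) came from Q20 F4 and Q92 F1, both set apart. Its slope was -0.59 ± 0.0899 (adjusted p = 1.96e-05) without the level, -0.71 with it and -0.67 on the 27 libraries. Pcp4, a small calmodulin-binding protein, had 508 to 659 CPM in Q20 (median 639), 492 to 618 in Q50 (543), 468 to 613 in Q92 (555) and 343 to 507 in Q140 (386). Its Q140 values all lay below every Q20 library and 7 of 8 below every other knock-in library, with a slope of -0.58 ± 0.0705 (adjusted p = 8.25e-07).

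Ryr1, the calcium release channel of the endoplasmic reticulum, had 19.4 to 134 CPM in Q20 libraries (median 110), 72.3 to 119 in Q50 (99.5), 28.3 to 90.6 in Q92 (67.3) and 25.6 to 42.3 in Q140 (30.8), against 77.7 to 151 (113) in wild types. The 2 lowest Q20 values, 19.4 in F4 and 30 in M4, and the lowest Q92 value, 28.3 in F1, fell among those of Q140, and those 3 libraries are among the 5 set apart. Its slope was -1.57 ± 0.284 (adjusted p = 0.000194), -2.06 with the level and -1.82 on the 27 libraries. Scn4b, the auxiliary beta subunit of sodium channels that shapes resurgent current, had 435 to 1710 CPM in Q20 (median 1410), 1200 to 1700 in Q50 (1540), 557 to 1260 in Q92 (1160) and 486 to 804 in Q140 (680). All 8 Q140 libraries were below every wild type (1140 to 2000), and the slope was -0.98 ± 0.221 (adjusted p = 0.00178), with -1.36 when the level was included.

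Pde10a, the main phosphodiesterase of these neurons, which degrades cyclic nucleotides, had 359 to 2020 CPM in Q20 (median 1520), 1260 to 1890 in Q50 (1560), 527 to 1450 in Q92 (1300) and 692 to 1110 in Q140 (965), against 1330 to 2200 (1770) in wild types. Its Q140 values were all below every wild type, and its lowest values at Q20 and Q92 came from Q20 F4 (359) and Q92 F1 (527). Pde10a fell without the level (-0.64 ± 0.23, adjusted p = 0.0392) and with it (-1.10, adjusted p = 0.00232). Pde10a, Drd1, Drd2, Adora2a and Tac1 are outside the rule for named genes and were chosen after their values were seen.

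Some indirect pathway genes fell with length. Of 7 measured, Penk and Plxdc1 fell and 0 rose without the level, 4 fell with it and 5 fell on the 27 libraries, with medians of -0.38, -0.84 and -0.58, where 11.9%, 5.78% and 11.2% of all genes tested fell. Sp9, a transcription factor of these neurons, had a slope of 0.32 without the level (adjusted p = 0.0713). Penk, which encodes the enkephalin precursor, had 255 to 1280 CPM in Q20 (median 981), 899 to 1210 in Q50 (1050), 312 to 925 in Q92 (734) and 430 to 635 in Q140 (537), against 753 to 1470 (1090) in wild types. Its slope was -0.82 ± 0.231 (adjusted p = 0.0107) without the level, -1.28 ± 0.234 (adjusted p = 0.000469) with it and -1.04 on the 27 libraries. Its 3 lowest values outside Q140 came from Q20 F4 (255), Q92 F1 (312) and Q20 M4 (294). Plxdc1, a transmembrane plexin-domain protein, had a slope of -0.62 (adjusted p = 0.00268) without the level and of -0.10 (adjusted p = 0.518) with it. Drd2 and Adora2a, the dopamine and adenosine receptors of these neurons, were not past the threshold without the level (-0.38, adjusted p = 0.219, and -0.50, adjusted p = 0.131) and fell with it (-0.84, adjusted p = 0.0129, and -0.96, adjusted p = 0.0114).

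Direct pathway genes went both ways. Of 10 measured, 4 rose and 1 fell without the level, 0 rose and 3 fell with it, and 4 rose and 3 fell on the 27 libraries. The shares of all genes that rose in these 3 fits were 11.9%, 6.43% and 11.6%, and those that fell 11.9%, 5.78% and 11.2%. The 1 fall without the level was near its share. Tac1, the substance P precursor, rose (slope 0.61, adjusted p = 0.0319), with 44.9 to 229 CPM in Q20 (median 159), 150 to 201 in Q50 (169), 72.8 to 243 in Q92 (211) and 170 to 246 in Q140 (222). With the level its slope was 0.18 (adjusted p = 0.64), and on the 27 libraries 0.40 (adjusted p = 0.000688). Isl1, a transcription factor of these neurons, rose (0.28 ± 0.0779, adjusted p = 0.00854), and Eya1, a transcriptional coactivator, rose (0.52 ± 0.102, adjusted p = 0.000435), and neither was past the threshold with the level. Drd1, the dopamine D1 receptor, had a slope of -0.30 (adjusted p = 0.414) without the level and fell with it (-0.77, adjusted p = 0.047). No test of the difference between the pathways was made.

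**Figure D3:**
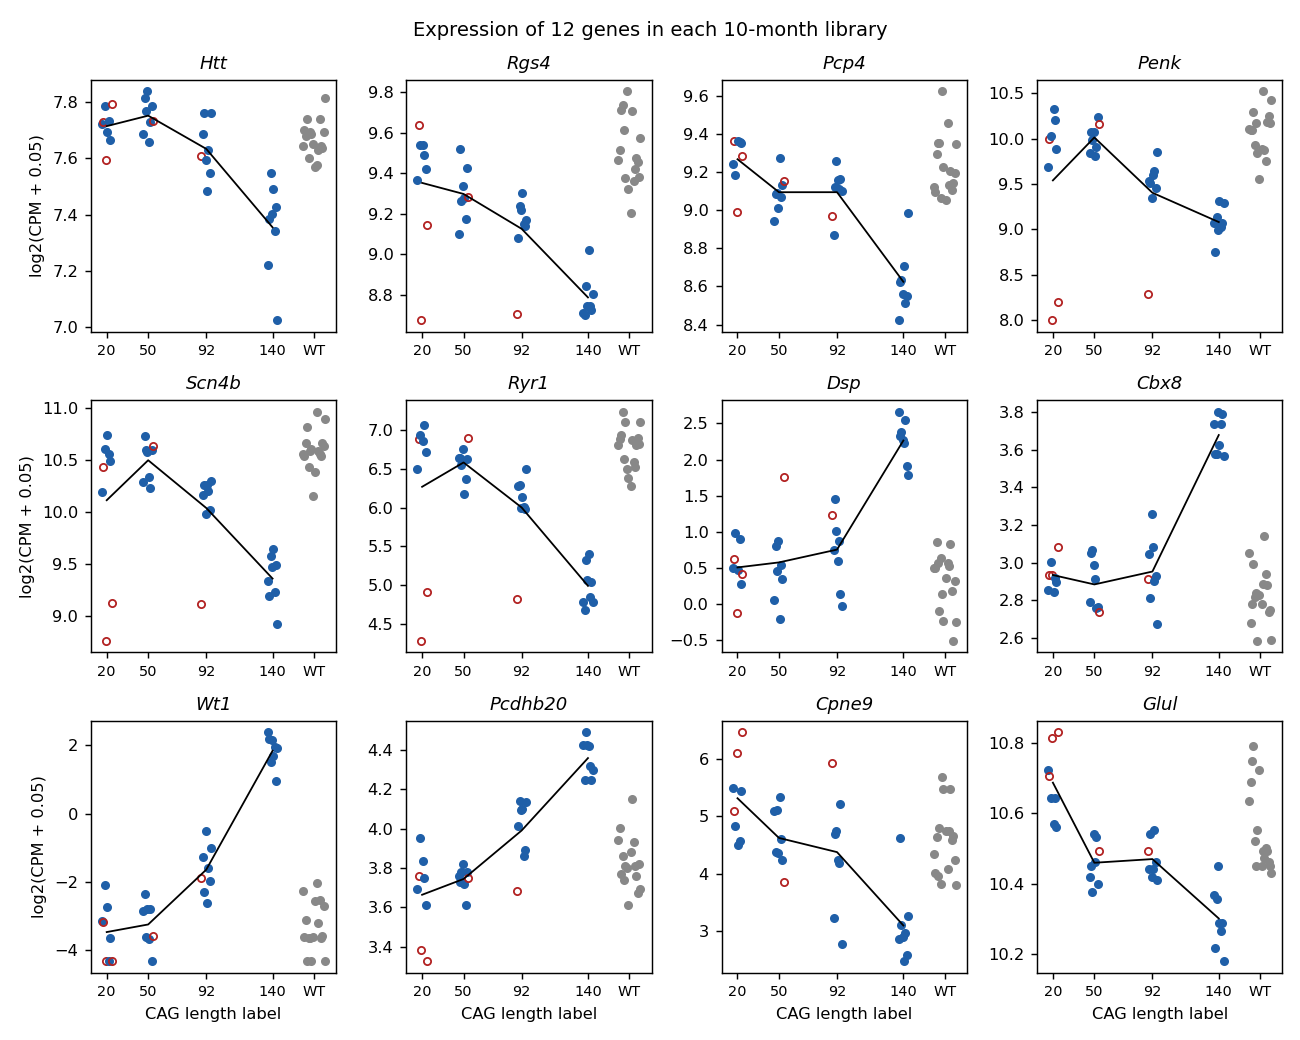
CPM of 12 genes in each 10-month library by CAG length label as log2(CPM + 0.05), with a line through the group means and wild types at the right; red open points are the 5 libraries set apart. Ryr1, Penk and Scn4b sit lowest in Q140 apart from the 3 libraries with high thalamus levels, and Dsp, Cbx8, Wt1 and Pcdhb20 sit higher in all 8 Q140 libraries than in all others.

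Of 23 cyclic nucleotide signalling genes, 3 rose and 6 fell without the level, and 1 rose and 5 fell with it. Over all genes tested, 11.9% rose and 11.9% fell without the level, and 6.43% rose and 5.78% fell with it. On the 27 libraries 11.2% of all genes fell. The counts of rises in the lists of this paragraph were near or below those shares. Prkacb, a catalytic subunit of protein kinase A, rose (0.25 ± 0.0526, adjusted p = 0.000941), and Adcy8, a calcium-stimulated adenylyl cyclase, fell (-1.12 ± 0.276, adjusted p = 0.00378), while with the level neither was past the threshold (0.11, adjusted p = 0.146, and -0.11, adjusted p = 0.729). Of 34 ion channel and calcium release genes, 1 rose and 8 fell without the level and 0 rose and 6 fell with it; on the 27 libraries 17 fell. Of 46 neurotransmitter receptor genes, 4 rose and 13 fell without the level, and 1 rose and 13 fell with it.

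The rise that held in both fits was Htr2c, the serotonin 2C receptor. It had 57.5 to 95.6 CPM in Q20 (median 62.9), 65.4 to 87.1 in Q50 (80.3), 70.3 to 104 in Q92 (89.1) and 102 to 121 in Q140 (110), against 54.4 to 90 (73.2) in wild types, and its slope was 0.67 ± 0.0728 (adjusted p = 1.26e-07) and 0.68 with the level. All 8 Q140 libraries lay above every Q20 and every wild-type library. Grm4, a metabotropic glutamate receptor of presynaptic terminals, fell in both fits (-0.50 and -0.47).

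Some activity-regulated genes, which neurons switch on after firing, fell with length. Of 18, 5 fell and 0 rose without the level and 8 fell and 0 rose with it, with medians of -0.35 and -0.77, where 11.9% and 5.78% of all genes tested fell. Egr2, an immediate early transcription factor, had 0.717 to 22.2 CPM in Q20 (median 18.4), 5.62 to 22.9 in Q50 (17.9), 1.37 to 16 in Q92 (10.4) and 1.07 to 8.15 in Q140 (6.6). Its values overlapped between the groups, and its slope was -1.61 ± 0.438 (adjusted p = 0.00805) and -2.45 with the level. Dusp1, a phosphatase of MAP kinases, fell in both fits (-0.62 and -0.71).

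Among the largest falls by slope, Gpx6, a glutathione peroxidase family member, had 0.359 to 8.81 CPM in Q20 (median 6.11), 6.12 to 10.7 in Q50 (7.87), 2.59 to 6.69 in Q92 (3.77) and 0.656 to 1.9 in Q140 (1.12), against 2.63 to 13.5 (7.17) in wild types. All 8 Q140 values lay below every wild type, while Q20 F4 (0.359) and M4 (1.1) lay among them. Its slope was -2.39 ± 0.456 (adjusted p = 0.000369), -2.72 with the level. Sec14l3 (-1.88 and -2.24 with the level), a lipid transfer protein family member, Slc4a11 (-1.66 and -2.08), a membrane transporter, Phex (-1.63 and -2.04), a peptidase, and Ddit4l (-1.57 and -1.97), an inhibitor of mTOR signalling, fell in both fits, and all had all 8 Q140 libraries below every wild type. Abhd11os (-1.49 and -1.86), an antisense RNA, is uncertain, since strand use in counting is not given in the sources used here. Cpne9, a copine, and Chrna4, a nicotinic receptor subunit, fell in both fits, with slopes of -2.01 and -1.68 without the level and -0.70 and -0.46 with it; without Q140 F2, Chrna4 was no longer past the threshold with the level (-0.42).

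Dsp, which encodes the desmosomal plaque protein desmoplakin, rose most by slope among genes that the rule on average level admitted. It had 0.867 to 1.93 CPM in Q20 (median 1.35), 0.816 to 3.33 in Q50 (1.37), 0.933 to 2.7 in Q92 (1.71) and 3.39 to 6.28 in Q140 (4.88), against 0.655 to 1.77 (1.3) in wild types. All 8 Q140 libraries lay above every other knock-in and wild-type library. Its slope was 1.76 ± 0.233 (adjusted p = 2.72e-06) without the level, 1.53 with it and 1.90 on the 27 libraries. Dsg2, the cadherin of the same junction, also rose (0.94 and 0.69 with the level), and these were the 2 risen genes among 10 measured desmosome genes, none of which fell. Of all genes tested 11.9% rose without the level and 6.43% with it. Without Q140 F2, Dsg2 was no longer past the threshold with the level (0.63).

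The genes of the Polycomb proteins Sfmbt2 and Cbx8 rose, with most of the change at the longest repeat. Sfmbt2, a Polycomb group protein with MBT repeats, had 2.87 to 6.46 CPM in Q20 (median 4.47), 2.91 to 5.35 in Q50 (4.33), 3.92 to 6.27 in Q92 (5.57) and 11.1 to 13.9 in Q140 (12.5). Cbx8, a chromobox subunit of Polycomb repressive complex 1, had 7.14 to 8.44 CPM in Q20 (median 7.55), 6.63 to 8.34 in Q50 (7.18), 6.34 to 9.53 in Q92 (7.52) and 11.8 to 13.9 in Q140 (12.8). In both genes every Q140 library lay above every other knock-in and wild-type library, and the 3 shorter lengths overlapped. The slope was 1.52 ± 0.164 for Sfmbt2 (adjusted p = 1.23e-07) and 0.75 ± 0.097 for Cbx8 (adjusted p = 2.04e-06). Other genes of these families were looked at after these values were seen. Cbx2 (slope 0.12), Cbx6 (0.01) and Cbx7 (-0.00) were not past the threshold (adjusted p = 0.5, 0.897 and 0.953), and Sfmbt1 was lower (-0.15, adjusted p = 0.0265).

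Wt1 and Onecut1, developmental transcription factors, were below 1 CPM in every Q20, Q50 and Q92 library and above it in every Q140 library. Wt1, a zinc-finger factor of kidney and gonad development, had 0 to 0.184 CPM in Q20 (median 0.0457), 0 to 0.146 in Q50 (0.06), 0.113 to 0.646 in Q92 (0.252) and 1.88 to 5.17 in Q140 (3.76), against 0 to 0.196 in wild types. Its Q92 values overlapped those of Q20 and Q50, and its Q140 values did not overlap any other group. Onecut1, a factor of liver and pancreas development, had 0 to 0.647, 0 to 0.727, 0.062 to 0.281 and 1.69 to 4 CPM at the 4 lengths in order. The fitted slopes were 7.14 (adjusted p = 1.87e-14) and 4.13 (adjusted p = 2.7e-06); with libraries at 0 in Q20 these sizes depend on the prior count. Emx2, a homeobox factor of cortical patterning, rose (0.80, adjusted p = 0.00104) and did not pass with the level (0.47, adjusted p = 0.0882). Over 17 measured factors of the list of developmental factors 4 rose and 2 fell without the level, and 2 rose and 1 fell with it, with medians of 0.098 and -0.064, where 11.9% and 6.43% of all genes tested rose. Emx2os, transcribed opposite Emx2, cannot be told from it without strand.

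For 3 of these genes the 250 bases before the annotated start are shown, because their Q140 values stood clear of every other library; RefSeq, build GRCm38.p6, with CG dinucleotides in capitals. Wt1 is named only. Cbx8 is chr11:119040914-119041163 (minus strand, 22 CG), Dsp is chr13:38151044-38151293 (plus strand, 22 CG) and Onecut1 is chr9:74861671-74861920 (plus strand, 31 CG). At 32851 starts in the same table the median was 6 CG per 250 bases, and 14.8% of starts held at least 22 and 5.19% at least 31. This describes the letters and draws nothing about a factor.
Cbx8: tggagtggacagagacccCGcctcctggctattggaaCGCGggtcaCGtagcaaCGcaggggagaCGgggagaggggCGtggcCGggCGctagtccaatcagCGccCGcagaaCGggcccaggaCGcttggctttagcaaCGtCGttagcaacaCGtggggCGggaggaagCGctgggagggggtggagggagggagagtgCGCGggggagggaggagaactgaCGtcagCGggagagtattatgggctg
Dsp: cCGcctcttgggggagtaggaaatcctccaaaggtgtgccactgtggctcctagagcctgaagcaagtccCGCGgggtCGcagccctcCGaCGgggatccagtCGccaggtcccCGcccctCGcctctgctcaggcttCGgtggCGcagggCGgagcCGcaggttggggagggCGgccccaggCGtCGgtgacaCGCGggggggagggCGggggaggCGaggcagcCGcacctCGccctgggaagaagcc
Onecut1: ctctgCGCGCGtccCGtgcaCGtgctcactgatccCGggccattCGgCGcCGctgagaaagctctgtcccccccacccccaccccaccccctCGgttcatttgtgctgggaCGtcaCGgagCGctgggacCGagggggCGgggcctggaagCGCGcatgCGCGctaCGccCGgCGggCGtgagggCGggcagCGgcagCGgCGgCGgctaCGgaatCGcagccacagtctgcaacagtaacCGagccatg

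Clustered protocadherins, cell-surface cadherins by which neurons recognise themselves, mostly rose. All in the list but Pcdha11 and Pcdhgc4 were Pcdhb genes, so the counts say little of the other protocadherin clusters. Of 24 measured, 18 rose and 0 fell without the level, 13 rose and 1 fell with it, and 18 rose on the 27 libraries, against 11.9% of all genes that rose. The median slope was 0.47 without and 0.34 with the level. Pcdhb20 had 9.99 to 15.4 CPM in Q20 (median 13.1), 12.2 to 14.1 in Q50 (13.4), 12.8 to 17.6 in Q92 (16.6) and 18.9 to 22.4 in Q140 (20.6), against 12.2 to 17.7 (14) in wild types, and its Q140 libraries lay above all others. Its slope was 0.70 ± 0.0674 (adjusted p = 1.55e-08). Pcdhb3 (0.79 ± 0.082) and Pcdhb9 (0.54 ± 0.0561) rose likewise, with all 8 Q140 libraries above all others. The Pcdhb genes are similar in sequence, so reads can be split between them and single values are uncertain.

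Other genes rose with the level and without it. Tnnt2, cardiac troponin T, had a slope of 1.30 ± 0.119 (1.17 with the level), Rprm, a p53-induced cell cycle inhibitor, 1.31 (1.15), Ipcef1, which interacts with an Arf exchange factor, 1.33 (1.25), and Kcng1, a modifying potassium channel subunit, 1.09 (0.79). For the lists that follow, the shares over all genes tested were 11.9% higher and 11.9% lower without the level. With it they were 6.43% higher and 5.78% lower. Of 15 mismatch repair and repeat instability genes, 7 rose and 1 fell without the level, and 2 rose and 0 fell with it. Rrm2b, a p53-induced ribonucleotide reductase subunit, rose in both (0.28 and 0.27), while Mlh3 (0.25 and 0.15) and Msh3 (0.24 and 0.08), mismatch repair proteins that act on looped repeats, rose without the level and were not past the threshold with it. Of 17 protein folding and stress genes, 2 rose and 3 fell without the level and 1 each with it, which is near the shares over all genes. Sqstm1, an autophagy receptor, rose in both (0.16 and 0.18), and Atf3, a stress-induced transcription factor, rose without the level (1.14) and was not past the threshold with it (0.74, adjusted p = 0.0661). Of 21 cholesterol synthesis genes, 0 rose and 5 fell without the level and 2 fell with it, Idi1 (-0.30 and -0.26) and Msmo1 (-0.22 and -0.25); without Q140 F2 neither was past the threshold with the level (-0.21 each), and Idi1 also lost its call there without Q140 M2, Q140 M4, Q20 F3, Q50 M4 or Q92 F1 (-0.26 to -0.21).

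Some markers of other cells moved with length as well. As background, 11.9% of all genes tested rose and 11.9% fell without the level, and 6.43% rose and 5.78% fell with it. On the 27 libraries without the level, 11.6% rose and 11.2% fell. Of 14 astrocyte genes 9 fell and 0 rose without the level and 4 fell with it, and the level of the whole list ran from 7.73 to 8.18 in Q20, 7.67 to 7.84 in Q50, 7.59 to 7.93 in Q92 and 7.49 to 7.7 in Q140 libraries, against 7.58 to 7.94 in wild types. Glul, glutamine synthetase, had 1510 to 1820 CPM in Q20 (median 1640), 1330 to 1490 in Q50 (1410), 1360 to 1500 in Q92 (1400) and 1160 to 1400 in Q140 (1250). Every Q140 library was below every Q20 library, and the slope was -0.33 ± 0.0463 (adjusted p = 4.88e-06) and -0.29 with the level. Wild types kept with Q20 mice ran from 1400 to 1770 CPM and those kept with Q50 mice from 1380 to 1450. Slc4a4, a bicarbonate cotransporter, fell in both fits (-0.40 and -0.38). Of 12 oligodendrocyte genes 6 fell without the level and 0 with it, such as Ugt8a, an enzyme of myelin lipid synthesis (-0.54, adjusted p = 0.000882, and -0.35, adjusted p = 0.0808). Of 12 blood vessel genes 6 fell without the level and 0 with it. Of 13 microglia genes 0 passed in either direction in all 4 fits. The part of these cell types in the slopes of the other groups was not tested. Of 9 cortical projection neuron genes 4 rose and 1 fell without the level, 1 rose and 0 fell with it, and 1 rose and 1 fell on the 27 libraries. Neurod6 and Tbr1 rose without the level (1.57 and 1.29) and did not pass with it (1.27 and 1.23, adjusted p = 0.224 and 0.16) or on the 27 libraries (1.53 and 1.22, adjusted p = 0.057 and 0.0771). Both also lost their calls without Q140 F4 (1.11 and 0.996) or without Q140 M3 (1.28 and 1.02).

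**Figure D4:**
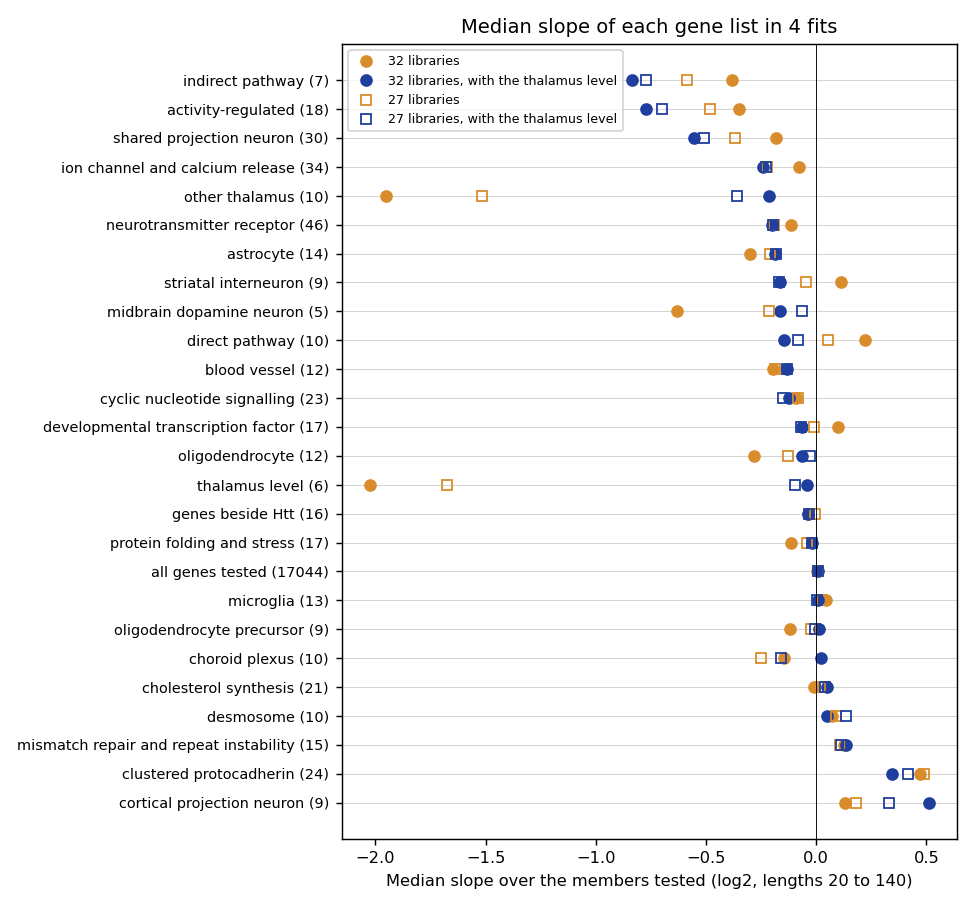
Median slope of each gene list and of all genes tested, as points, for the 32 and the 27 libraries, each without and with the thalamus level; liver, pituitary and red blood cell lists are not drawn. Shared projection neuron, indirect pathway and activity-regulated lists lie below 0 and the protocadherin list above it in every fit, and both thalamus lists lie far below 0 only in the fits without the level. The level is the mean of 1 of these 2 lists, so that list lies near 0 with the level by construction.

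The shape over the 4 lengths varied between genes. For the 4050 genes called by slope the median share of the Q20-to-Q140 change reached by Q50 was 34.5% and by Q92 49.6%, where a straight line over length gives 25% and 60%. The largest of the 3 steps was that from Q92 to Q140 for 2150 genes (53.1%) and that from Q20 to Q50 for 1274. Q92 to Q140 is also the widest interval, so a straight line makes its step the largest for every gene, and the share of 53.1% says nothing of a late change. Of the 4050, 53% changed one way at every step. Among the 1313 genes called in both fits the median shares were 12.7% by Q50 and 44.4% by Q92. Steps were tested with edgeR's quasi-likelihood test. Q140 against Q92 gave 420 calls (2.46%), 218 higher and 202 lower, and 610 (3.58%) with the level. Without the 5 libraries set apart that step gave 1036 calls, and with the lane label as a factor 136. Limma on log2(FPKM + 1) split it into 352 higher and 112 lower. Q92 against Q50 gave 0 calls (0%), with 1133 genes at an unadjusted p under 0.05, 14 calls by DESeq2, 0 by limma and 46 without the 5 libraries. Q50 against Q20 gave 86 calls (0.505%), 20 without the 5 libraries and 24 with the level. Without Q140 mice 40 genes had a slope past the threshold (0.237%), and without both Q140 and the 5 libraries 166 did (0.975%).

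A departure from a straight line was called for 33 genes (0.194%), and for 36 (0.211%) with the level, 27 of them in both. Of the 33, 19 also had a slope past the threshold, 13 that steepened with length and 6 that flattened. Steepening genes included Sfmbt2, Cbx8 and Nrep, a growth-associated neuronal protein, which fell. Nrep had 42.2 to 54.3 CPM in Q20 (median 49.9), 45.9 to 58.2 in Q50 (53.8), 42.1 to 60.2 in Q92 (48.6) and 27.7 to 32.8 in Q140 (28.9), so all Q140 values lay below every other library. Its slope was -0.74 ± 0.109 (adjusted p = 1.17e-05). Cdc25b, a cell cycle phosphatase, was also a steepening gene (slope -0.30, adjusted p = 0.0236); it lost its call without Q140 F1 (-0.27) or without Q140 F3 (-0.27). Its Q50 to Q20 difference was 0.20 (adjusted p = 0.185), and the wild types kept with Q50 mice differed from those kept with Q20 mice by 0.25 (adjusted p = 0.0307).

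The flattening genes changed between Q20 and Q50 and were compared with the wild types of the 2 cohorts, which share no samples with the knock-ins. Zbtb16, a zinc-finger transcription factor, had 18.6 to 42.1 CPM in Q20 (median 26.4), 5.76 to 11.1 in Q50 (7.65), 6.45 to 20.9 in Q92 (8.75) and 2.9 to 13 in Q140 (9.11). In wild types it had 5.69 to 11.5 in those kept with Q50 mice (median 7.96) and 17.7 to 61.4 in those kept with Q20 mice (24). Its Q50 to Q20 difference was -1.75 and its wild-type cohort difference -1.81 (adjusted p = 0.0177). Cyp1b1, a cytochrome P450, had -0.65 and -0.62 (adjusted p = 0.0177), Ccdc141 -0.57 and -0.50 (adjusted p = 0.0526) and Atp10a, a phospholipid-transporting ATPase, -0.51 and -0.43 (adjusted p = 0.061). Gm6410 went 1.15 between the lengths and -0.23 between the cohorts (adjusted p = 0.594). Between the wild-type cohorts 76 of 16524 genes were called (0.46%). Of the 86 calls between Q50 and Q20 20 were among them (23.3%, or 26.3% of the 76), all 20 with the same sign. Of the 33 departures 5 were among them (15.2%). Of the 76 wild-type cohort calls 36 also had a slope called in the knock-ins (47.4%), against 23.8% of all genes tested for a slope. The part of the cohorts in the slopes was not tested. No wild types of the Q92 and Q140 cohorts could be compared.

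At 6 months the slope was past the threshold for 2988 of 17120 genes (17.5%), 1308 higher and 1680 lower. The difference between the slopes at 10 and at 6 months, fitted over both ages in 64 libraries, was past the threshold for 1844 of 17511 genes (10.5%), 774 higher and 1070 lower at 10 months. The thalamus level ran differently at 6 months, with means of 4.4 in Q20, 2.55 in Q50, 5.03 in Q92 and 4.58 in Q140 mice. With the level in the fit 0 of these differences were past the threshold (0%), with 1897 genes at an unadjusted p under 0.05. Without the 5 libraries 513 of 17723 were called (2.89%), and 2 (0.0113%) with the level as well. The 5 were chosen among 10-month libraries alone, and the 6-month libraries were not screened by these marker levels.

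Many of the genes above had like slopes at both ages. Rgs4 had -0.59 at 10 months and -0.58 at 6 months, Pcp4 -0.58 at both, Scn4b -0.984 and -0.998, Gpx6 -2.39 and -2.20, and Ryr1 -1.57 and -1.12, and none of these differences was past the threshold (adjusted p = 0.979, 0.997, 0.981, 0.895 and 0.423). Of the 30 shared projection neuron genes 28 fell at 6 months. Protocadherins rose at both ages, 18 of 24 at 6 months. Of all 17120 genes tested at 6 months, 1680 fell and 1308 rose. Pcdhb20 (0.70 at 10 months, 0.37 at 6 months, adjusted p of the difference = 0.0212) and Pcdhb3 (0.79 and 0.42, 0.0282) differed in the full fit. Emx2 (0.80 and -0.10, adjusted p = 0.00885), Slc4a4 (-0.40 and -0.13, adjusted p = 0.0219) and Atp1b2, the astrocytic sodium pump subunit (-0.56 and 0.03, adjusted p = 0.00885), differed as well. With the level none of the 5 differences was past the threshold, at 0.19 for Pcdhb20, 0.40 for Pcdhb3, 0.54 for Emx2, -0.24 for Slc4a4 and -0.25 for Atp1b2, against 0.33, 0.37, 0.90, -0.28 and -0.59 without it. Without the 5 libraries Emx2, Atp1b2 and Pcdhb3 kept their calls (adjusted p = 0.00915, 0.0176 and 0.0478), and Pcdhb20 and Slc4a4 did not (0.0577 and 0.0646).

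**Figure D5:**
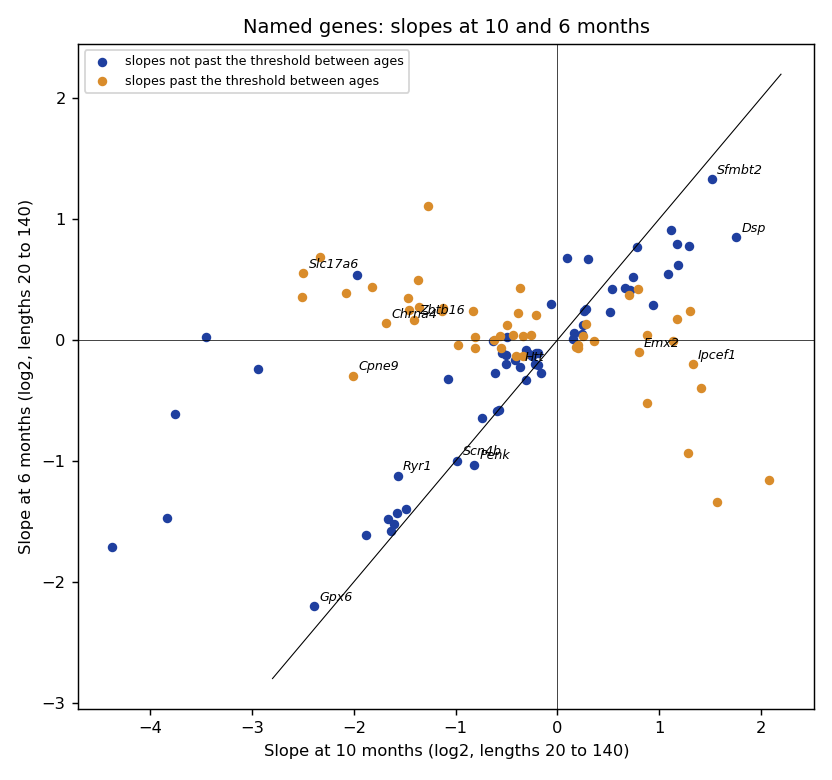
Slope of each named gene at 10 months (horizontal) and at 6 months (vertical), both as log2 change from 20 to 140, with Wt1 and Onecut1 left out because of their large slopes. Rgs4, Pcp4 and Scn4b lie near the line of equal slopes, and the thalamus genes lie far above it, at negative slopes at 10 months and positive ones at 6 months.

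Between males and females the slopes differed for 0 of 17044 genes (0%), with 540 at an unadjusted p under 0.05 and 0 calls by DESeq2 and by limma. Females alone gave 473 slope calls and males alone 1520.

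The slopes of 768 genes were called only when the thalamus level was in the fit. The 4 largest such falls, Cyp2e1, Car3, Apoa1 and Hpx, are all expressed in liver. They had 145, 91, 125 and 74.7 CPM in Q50 M4, the library set apart by its liver level, and at most 1.25 CPM in every other knock-in library. Their slopes with the level were -6.85, -6.84, -6.10 and -5.22, and without Q50 M4 they were -0.20, -0.03, 0.40 and -0.63, with none past the threshold. Slopes that were positive and called with the level alone included Adamts19 (1.03), Cnih3 (0.76), an AMPA receptor auxiliary subunit, and Vwa5b2 (0.73). Without the level these slopes were -1.27, -0.07 and 0.31 (adjusted p = 0.102, 0.868 and 0.183), so the sign turned for Adamts19 and Cnih3. Adamts19 lost its call without Q20 F3, Q20 M1, Q20 M2 or Q92 F1 (0.91 to 1.0).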

How the data were processed

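The authors deposited expected counts per gene, estimated reads with no normalization, and FPKM values, which the authors scaled by gene length and by library total, both for 39179 Ensembl identifiers in 96 libraries. Per the submitters' processing notes CASAVA 1.8.2 was used; no aligner, quantifier or build is named there. Of the non-zero deposited counts 28% were fractional at a tolerance of 0.001, and counts were rounded. Symbols came from the reference annotation by identifier, with 37607 matched.

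Counts of the 32 knock-in libraries were tested with edgeR 4.0.16 (quasi-likelihood, robust) in R 4.3.3, with filterByExpr, sex as a covariate and TMM factors over the 48 libraries of 10 months, or over the 64 knock-in libraries for the ages. Tests were two-sided with Benjamini-Hochberg adjustment over all genes. Departure from a line had 2 degrees of freedom, for quadratic and cubic terms. Log2 CPM used a prior count of 2. Alternatives used DESeq2 1.42.0 and limma 3.58.1 on log2 FPKM, and the code was tested on simulated counts. Replicate numbers count animals within a sex and the main tests use no block.

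Members and 28 gene lists were chosen with earlier results of these data known. Named genes were Htt, the thalamus genes, the 10 largest rises and falls by slope past both thresholds at an average log2 CPM of at least 1 with the same sign in both sexes, the 3 members of smallest p of each list, 5 steepening and 5 flattening genes, and 4 genes each way for the age difference, the sex difference and calls in 1 fit alone. The text prints a choice of them, and some are not reported here.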

Additional observations from a re-analysis of the deposited data

Results flagged for a closer look

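In groups of 8, a highest or lowest library was marked where its gap to the nearest other library, divided by the range of the group, was above Dixon's 95% critical value for 8 samples. Of 435 groups 58 were marked (13.3%), where chance marks about 1 in 20, and 30 of the 58 marks fell on the 5 libraries set apart. Below, the value after each gene is that share of the range.

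Q92 F1 was lowest in its group for Ptprh (0.619), A830036E02Rik (0.700), Vill (0.575), Kcng1 (0.732), Phex (0.784), Egr2 (0.632), Ddit4l (0.529), Ryr1 (0.693), Abhd11os (0.601), Rgs4 (0.633), Penk (0.673), Isl1 (0.619), Sfxn1 (0.572) and Scn4b (0.729). Q92 F1 was highest in its group for Atp1b2 (0.649) and Otx2 (0.555). Q20 F4 was lowest in its group for Egr2 (0.617), Dusp1 (0.767) and Nrep (0.617). Q20 F4 was highest in its group for Htr2c (0.528), Sqstm1 (0.587) and Slc18a2 (0.635). Q50 M4 was lowest in its group for Pcdhb3 (0.620). Q50 M4 was highest in its group for Dsg2 (0.715), Cyp2e1 (0.720), Car3 (0.796), Apoa1 (0.829) and Hpx (0.719). Q20 M4 was lowest in its group for Mfsd10 (0.568). Q20 F2 was lowest in its group for Cyp2e1 (0.550). Q140 F2 was lowest in its group for Ddit4l (0.538). Q140 F2 was highest in its group for thalamus level (0.586), Tcf7l2 (0.612), Prkcd (0.627), Ntng1 (0.563), Lef1 (0.746), Cpne9 (0.630), Chrna4 (0.546), Plxdc1 (0.554), Adcy8 (0.628), Zic1 (0.681), Zic4 (0.705), Synpo2 (0.671) and Adamts19 (0.582). Q140 M4 was lowest in its group for Slc4a4 (0.669), Pecam1 (0.629), Zbtb16 (0.594), Atp10a (0.621) and Nid1 (0.566). Q140 M4 was highest in its group for Cfap36 (0.620). Q140 M1 was lowest in its group for Mal (0.590). Q140 M1 was highest in its group for Rgs4 (0.559). Single marks were Msmo1 highest in Q20 F3 (0.531), Eya1 lowest in Q50 M2 (0.632), Rgs5 lowest in Q50 F2 (0.664), Pvalb lowest in Q92 M4 (0.568), Car3 lowest in Q92 F3 (0.599) and Apex1 lowest in Q140 F3 (0.614).

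The slope at 10 months minus that at 6 months was past the threshold of edgeR's quasi-likelihood test for 48 named genes. For Shox2, a gene of the thalamus level, the difference was not past the threshold (-2.51, adjusted p = 0.111). Among the 48, the difference was negative for these genes of the thalamus lists: Slc17a6 (-3.04), Tcf7l2 (-2.47), Prkcd (-3.01), Ntng1 (-2.26), Lef1 (-1.63), Zic1 (-1.81), Zic4 (-1.37), Synpo2 (-1.71) and Lhx9 (-2.85). It was also negative for Cpne9 (-1.71), Chrna4 (-1.81), Plxdc1 (-0.62), Adcy8 (-1.39), Hcn2 (-0.37), Rorb (-0.84), Pvalb (-1.07), Glul (-0.21), Slc4a4 (-0.28), Atp1b2 (-0.59), Pecam1 (-0.30), Aldh1a1 (-0.93), Zbtb16 (-1.58), Ccdc141 (-0.62), Atp10a (-0.49), Cyp1b1 (-0.62), Phka1 (-0.48), Zfhx3 (-0.80), Nid1 (-0.42), Flt3 (-1.87) and Adamts19 (-2.38). It was positive for Ipcef1 (1.53), Rprm (1.06), Emx2os (1.02), Prkacb (0.21), Pcdhb20 (0.33), Pcdhb3 (0.37), Emx2 (0.90), Atf3 (1.15), Rrm2b (0.15), Neurod6 (2.92), Ensa (0.25), Cfap36 (0.24), Apex1 (0.37), Eif3e (0.27), Nr4a2 (1.81), Tbr1 (2.22), Ccn2 (1.40) and Onecut2 (0.83). With the thalamus level in the fit 0 of these differences were past the threshold, though some sizes stayed close, such as Rrm2b at 0.15, Apex1 at 0.335, Eif3e at 0.24 and Pcdhb3 at 0.40. The part of the level in these differences was not tested.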

How the results depend on the processing

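The 4050 slope calls stayed within 1.5 times under RLE normalization, other count filters, DESeq2, limma, the lane label, log2 or rank of length, and without Q50 or Q92, and ran from 3463 to 4354 when 1 library was left out. They were 473 in females alone, 1520 in males alone, 2061 without Q20, 40 without Q140 and 166 without Q140 and the 5 libraries set apart. The 2081 calls with the thalamus level ran from 1540 to 2920 when 1 library was left out (1540 without Q140 F2), and were 848 with log2 of length, 215 in females, 304 in males, 690 without Q50, 25 without Q140, 207 without Q140 and the 5 libraries, and 3723 with the level on a linear scale. The 33 departures were 153 with no count filter, 20 with CPM of at least 1 in 8 libraries, 95 by DESeq2, 18 by limma, 20 by limma without a filter, 14 with the lane label and 53 without the 5 libraries. With the level the 36 were 56 with no filter, 152 by DESeq2, 1090 with the lane label and 123 without the 5 libraries. Q50 against Q20 gave 233 calls by DESeq2, 56 by limma, 52 by limma without a filter, 325 with the lane label, 20 without the 5 libraries and 24 with the level. Q92 against Q50 gave 14 by DESeq2 and 46 without the 5 libraries. Q140 against Q92 gave 672 by DESeq2, 136 with the lane label and 1036 without the 5 libraries. The age difference gave 860 by limma without a filter, 513 without the 5 libraries, 0 with the level and 2 with both. The wild-type cohorts gave 257 by DESeq2 and 41 and 25 by limma with a pseudocount of 1 and 0.1, and 41 without a filter. The slope of the thalamus level ran from -2.45 to -1.99 without 1 library and was -1.66 without Q140. The cause of these changes was not tested.

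Slopes that turned sign were, without Q20, Slc6a3 (0.17), Zbtb16 (0.078) and Cyp1b1 (0.17); without Q140, Cdc25b (0.19, and 0.10 with the level) and, with the level, Emx2os (-0.027); and without Q140 and the 5 libraries, Emx2os (-0.11, and -0.27 with the level), Mfsd10 (-0.0065) and Lrpap1 (-0.0091). With the level, Cyp2e1 was 0.63 without Q50 and 0.34 without Q140 and the 5 libraries, Car3 0.047 without the 5 libraries and 0.16 without them and Q140, and Apoa1 0.35 without the 5 libraries, 0.44 in females alone, 0.30 without Q50 and 0.40 without Q50 M4; leaving out 1 library at a time gave -6.87 to 0.404 for Apoa1.

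The replicate block gave 3657 slope calls, 2171 with the level, 17 departures, 30 with the level, 53 for Q50 against Q20, 0 for Q92 against Q50 and 311 for Q140 against Q92. Same-numbered libraries of 1 sex had a mean correlation of deviations of -0.046 over 48 pairs (-0.547 to 0.473, 16 over 0.1), so no pairing was assumed and the libraries share only a number.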

Other observations

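Onecut2, a transcription factor related to Onecut1, had 11.2 to 57.2 CPM in Q20 (median 44.2), 37.1 to 51.3 in Q50 (44.3), 22.2 to 53.5 in Q92 (48.2) and 64.2 to 86.5 in Q140 mice (72.7), against 36.8 to 64.4 (51.6) in wild types. All 8 Q140 libraries lay above every other knock-in library and 7 of 8 above every wild type. Its slope was 0.88 ± 0.2 (adjusted p = 0.00205 by edgeR's quasi-likelihood test with Benjamini-Hochberg adjustment), and 0.46 (adjusted p = 0.169) with the thalamus level. Apex1, a base excision repair endonuclease, rose in both fits (0.36 and 0.28), with 24.9 to 27.9 CPM in Q140 and 16.4 to 24 in Q20 libraries, which did not overlap. Phka1, a regulatory subunit of phosphorylase kinase, fell in both (-0.43 and -0.27), and all 8 of its Q140 libraries lay below every Q20 library. Vcan, a matrix proteoglycan and the member of the oligodendrocyte precursor list that fell, had slopes of -0.19 (adjusted p = 0.0255) and -0.29 with the level; without Q140 M1 or without Q140 M4 the first was no longer past the threshold (-0.18 and -0.17).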
